A study of Mus musculus with 2 samples.

Results

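The 10 genes described here are the Fos family (Fos, Fosb, Fosl1 and Fosl2), the Jun family (Jun, Junb and Jund), and the immediate early genes Egr1, Ier2 and Atf3. They were taken by symbol from the 22609 gene rows of the count tables, and all 10 passed the minimum of 20 reads over both libraries, as did 12186 genes in all. The study asked which mRNAs associate with Ago2 when miR-471-5p is in excess in Sertoli cells, the nurse cells of the seminiferous tubule. TM4, an established mouse Sertoli cell line, received either a miR-471-5p mimic or a scramble control, and RNA bound to Ago2 was immunoprecipitated (IP) and sequenced 48 h later. Each condition was represented by 1 library, with 18628310 reads on genes for the mimic and 18717225 for the scramble, so no difference below has a replicate check. The intervals given are 95% exact intervals that cover counting error only.

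The Sertoli cell genes looked up summed to 780 CPM (reads scaled to a common library size) with the mimic and 979 with the scramble, most of it from Kitl, which had 12245 and 16163 reads. Sox9, a Sertoli cell factor, had 1228 and 1070 reads and Wt1, a factor of the same cells, 73 and 35, whereas Amh, another Sertoli product, had 5 and 5, and Fshr and Gata1 were listed at 0 in both. Of the 15 Sertoli genes looked up that were in the tables, 7 had at least 20 reads. Summed germ cell markers reached 6.91 and 7.99 CPM in the mimic and scramble libraries, Leydig cell markers 4.50 and 4.72, and macrophage markers 1.55 and 1.93. Peritubular myoid genes summed to 4251 and 5820 CPM, nearly all from Acta2 and Tagln, while Myh11, the smooth muscle myosin, had 6 reads in each library. The part of these markers in the results below was not tested.

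Immediate early genes are switched on within minutes of a growth factor, cytokine or stress signal, without new protein synthesis, and most of them encode transcription factors. Fos proteins pair with Jun proteins through a basic leucine zipper (bZIP) to form AP-1, which binds the TGANTCA site, and Jun proteins can also pair with each other. Their mRNAs are short-lived, and AU-rich elements in the 3′-UTR are a known reason for this. In Ago2 IP, an mRNA can be recovered in larger amount because more of it is present or because more of it is bound by miRNA complexes. These cannot be told apart here without the RNA before the pull-down, nor can a change per cell be told apart from a change in the number of cells expressing the gene.

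Canonical targets pair with the miRNA seed, bases 2 to 8 of the mature strand, so the miRNA is shown first. In the RefSeq annotation of GRCm38.p6 its bases are 66792634 to 66792655 of chromosome X, read on the minus strand. The seed is in capitals.
mmu-miR-471-5p: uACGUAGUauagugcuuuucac

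None of the 10 mRNAs held a contiguous match to bases 2 to 7 of miR-471-5p. The shortest match searched was the 6mer CTACGT, which pairs with bases 2 to 7. It was absent from the whole of each gene's representative transcript, 3′-UTR and coding region included, and from all 18 coding transcripts annotated for the 10 genes (GENCODE M21). Among the 11770 measured genes with a transcript, 5.80% held CTACGT in the 3′-UTR, 16.3% in the coding region and 22.2% anywhere. The longer match ACTACGT was in the 3′-UTR of 1.42% of them. Matches that do not pair with base 2, and sites with mismatches or wobble pairs, were not searched.

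AU-rich pentamers, the letters ATTTA, were found in the 3′-UTR of 9 of the 10 mRNAs and of 66.7% of the 11603 measured genes with a 3′-UTR. Stretches of 8 of them are shown because these elements are a known feature of short-lived early response mRNAs. The overlapping heptamer TATTTAT was in 7 of the 10 and in 28.1% of those genes. Each line below gives 30 bases of the 3′-UTR of 1 transcript, the stretch richest in ATTTA and then in A and T, with the pentamers in capitals.
Fos: tttttattgtgttttcaATTTATTTAttaa
Fosb: agctATTTAtccctttcctggttcccaaaa
Fosl1: tATTTAttttcctaaagagactatttttat
Fosl2: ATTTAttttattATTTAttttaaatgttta
Jun: ATTTAtaatcataggaaagATTTAgtaatt
Junb: atattgaatataatatatttgtgtATTTAa
Jund: tATTTAtgtttctactcgggaacaaacgtt
Atf3: ttttctgtaagagaaaatattacttATTTA

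The Fos 3′-UTR of 815 bases held 4 ATTTA pentamers, or 4.91 per kb, and that of Junb held 2 in 485 bases, or 4.12 per kb. Fosl2 had the most, 8, in a 3′-UTR of 4653 bases. Fosl1 had 1 in 638 bases, or 1.57 per kb, Fosb 1 in 2145 bases, or 0.466 per kb, and Ier2 had none in 755 bases.

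The 10 genes together had 48994 reads with the mimic and 30834 with the scramble, or 0.263% and 0.165% of all reads on genes. Their summed level was 1.59-fold higher with the mimic (log2 ratio 0.67, interval 0.65 to 0.69). The 10 genes were chosen with earlier results of these data known, so the counts that follow are not independent of the values. Of the 10 genes, 9 had a log2 ratio above 0, against 49.9% of all measured genes. The interval lay wholly above 0 for 8 of them, against 31.5% of all measured genes, and wholly below 0 for 1, Fosb, against 32.5%. Intervals narrow with read depth, which was not matched between the genes of a list and all measured genes, here and below. A gene was called past the fold where its log2 ratio reached 1 upward or -1 downward. Fosl1 and Junb passed it upward, 2 of 10 against a background of 3.96%, and 0 of 10 passed it downward against 3.08%. The call for Junb was lost after a regression on transcript length and GC content, described below. At a threshold of 0.5 in place of 1, 6 of 10 passed upward, against 14.9% of all measured genes, and for 5 of 10 the whole interval lay above 0.5, against 6.72%. The median log2 ratio of the 10 genes was 0.57, beside -0.00063 over all measured genes.

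**Figure D1:**
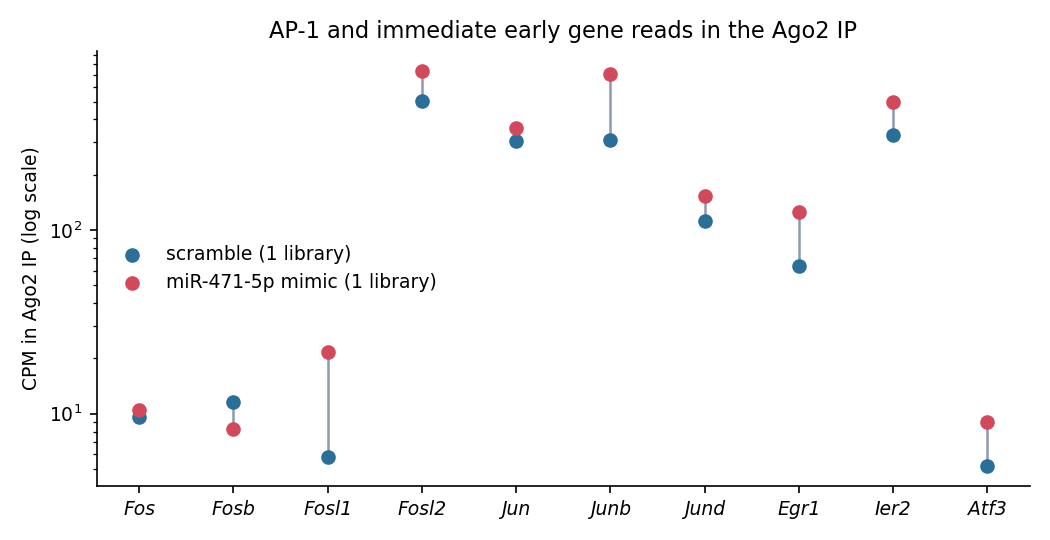
Level of each gene in the Ago2 IP, in CPM on a log axis, with 1 point per library and a line joining the scramble and mimic values. Fosl1 was at 5.84 CPM with the scramble and 21.8 with the mimic, and Junb at 310 and 703, and Fosb was the gene whose mimic point lay below its scramble point.

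In the Fos family, Fosl1 had the largest ratio of the 10 genes. Fosl1 encodes Fra-1, which lacks the strong transactivation domain of Fos and accumulates when the MAP kinase pathway stays active. Fosl1 had 406 reads with the mimic and 109 with the scramble, or 21.8 and 5.84 CPM. The mimic library was thus 3.72-fold higher (log2 ratio 1.90, interval 1.59 to 2.22), at percentile 99.1 of all measured genes. In GENCODE M21, 62.4% of the Fosl1 transcript lies over exons of Ccdc85b on the opposite strand. Strand use in the counting was not given in the sources used here, so reads of the shared bases cannot be told apart. Ccdc85b itself had 2240 and 1462 reads, and its log2 ratio was 0.61 (0.52 to 0.71).

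Fosl2 encodes Fra-2, and it supplied nearly all Fos family reads. It had 13792 reads with the mimic and 9369 with the scramble, or 739 and 502 CPM, and its log2 ratio was 0.56 (0.52 to 0.60). Fos, the founding member and the classical serum-induced gene, had 195 and 178 reads, or 10.4 and 9.54 CPM. Its log2 ratio was 0.13, and the interval of -0.17 to 0.43 included 0, so no difference was detectable at this depth. Fosb, whose protein also accumulates in long-lived forms after repeated stimulation, was the only one of the 10 that was lower with the mimic. It had 154 and 216 reads, or 8.25 and 11.6 CPM, and a log2 ratio of -0.49 (-0.80 to -0.18).

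The Fos family as a whole was 1.47-fold higher in the mimic library, with 14547 against 9872 reads (log2 ratio 0.56, interval 0.52 to 0.60). Its make-up by reads differed among the minor members. Fosl1 took 2.79% of Fos family reads with the mimic (2.53 to 3.07%) and 1.10% with the scramble (0.907 to 1.33%). Fosb took 1.06% (0.899 to 1.24%) and 2.19% (1.91 to 2.50%), and the share of Fos was 1.34% and 1.8%. In the scramble library Fosl1 thus had the fewest reads of the 4, and in the mimic library it was second to Fosl2. Fosl2 held 94.8% with the mimic and 94.9% with the scramble. Per kb of transcript, given below, Fosl1 and Fosb could not be ranked in the scramble library. The log2 ratio of Fosb minus that of Fosl1 was -2.38 (interval -2.83 to -1.94), and that of Fosl1 minus that of Fosl2 was 1.34 (1.03 to 1.66), or 0.89 after the regression.

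In the Jun family, Junb had the largest ratio. JunB is a Jun protein that activates transcription more weakly than Jun at single AP-1 sites and can hold back Jun activity. Junb had 13122 reads with the mimic and 5779 with the scramble, or 703 and 310 CPM. It was 2.27-fold higher (log2 ratio 1.18, interval 1.14 to 1.23), at percentile 97.2, and its log2 ratio after the regression was 0.88, short of the fold. Prdx2 overlaps the annotated span of Junb on the opposite strand but shares 0 exon bases with the Junb transcript, and its log2 ratio was 0.61.

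Jun, the strongest activator of the family, had 6745 and 5670 reads, or 361 and 304 CPM, and a log2 ratio of 0.25 (0.20 to 0.30). Jund, the member usually expressed without a stimulus, had 2844 and 2088 reads, or 152 and 112 CPM, and a log2 ratio of 0.45 (0.36 to 0.53). Junos, on the other strand, covers 7.28% of the Jun transcript, and an unnamed gene model, Gm11175, covers 52.6% of that of Jund, and neither has a row in the tables. Summed over the family there were 22711 and 13537 reads, which gives a log2 ratio of 0.75 (0.72 to 0.78).

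Jun and Junb contributed nearly equal numbers of reads in the scramble library, 41.9% (41.1 to 42.7%) and 42.7% (41.9 to 43.5%) of the family. With the mimic, Junb made up 57.8% (57.1 to 58.4%) and Jun 29.7% (29.1 to 30.3%). Jund held 15.4% with the scramble and 12.5% with the mimic. The log2 ratio of Jun minus that of Junb was -0.93 (interval -1.0 to -0.86), that of Junb minus that of Jund was 0.74 (0.64 to 0.83), and that of Jun minus that of Jund was -0.20 (-0.29 to -0.098). After the regression the order of Jun and Jund reversed, with a difference of 0.20, while the other pairs kept their order at -0.65 and 0.85.

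**Figure D2:**
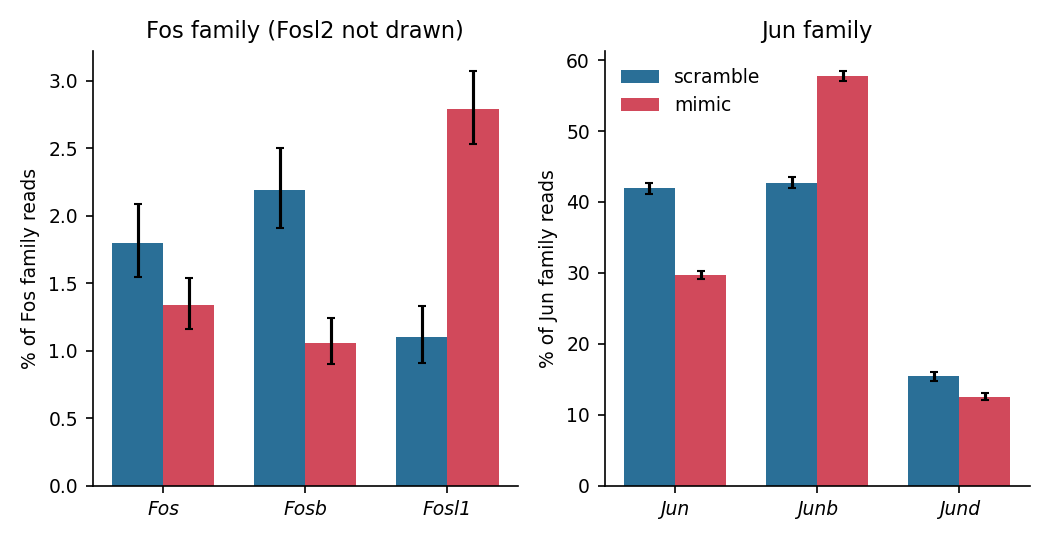
Share of the Fos family reads (left, Fosl2 left out because it holds about the whole axis) and of the Jun family reads (right) taken by each gene, in percent, with exact 95% binomial intervals that cover counting error. Fosl1 held 1.10% of its family's reads with the scramble and 2.79% with the mimic, and Junb 42.7% and 57.8%, while the shares of Fosb and Jun were smaller with the mimic.

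Egr1 encodes a zinc finger transcription factor that, like Fos, is induced through serum response factor. It had 2328 reads with the mimic and 1185 with the scramble, or 125 and 63.5 CPM, and was 1.96-fold higher (log2 ratio 0.97, interval 0.87 to 1.08). Its ratio was just short of the fold and its interval extended past it. Atf3, a bZIP factor of the stress response that can pair with Jun proteins, had 169 and 97 reads, or 9.05 and 5.20 CPM, and a log2 ratio of 0.80 (0.43 to 1.18). Ier2, a nuclear protein of the early response, had 9239 and 6143 reads, or 495 and 329 CPM, and a log2 ratio of 0.59 (0.54 to 0.63). The interval of Ier2 lay below that of Egr1, and that of Atf3 overlapped both.

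**Figure D3:**
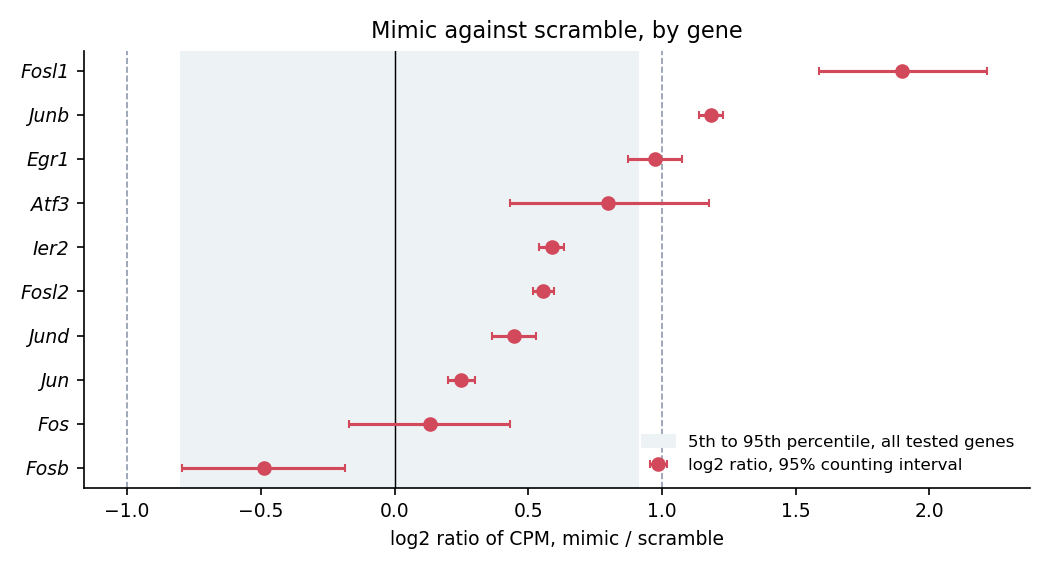
Log2 ratio of CPM in the mimic to the scramble library for each gene, ordered by size, with exact 95% intervals for counting error. The shaded band spans the 5th to 95th percentile of all measured genes, -0.80 to 0.91, and the dashed lines mark log2 ratios of -1 and 1. Fosl1 at 1.90, Junb at 1.18 and Egr1 at 0.97 lie above the band, and Fosb at -0.49 is the gene below 0.

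Per kb of transcript, Ier2 with Junb and Fos with Fosl1 changed places between the libraries, each without overlap of their intervals in either library. Full transcript length was used, and the intervals do not cover the effect of bases that Fosl1 shares with Ccdc85b. If reads of those bases were not counted, the level of Fosl1 per kb is too low here. Its place below Fos in the scramble library may then not hold. In the scramble library Ier2 was highest at 216 CPM per kb, followed by Junb at 171, Jun at 95.3, Fosl2 at 76.8, Jund at 67.1 and Egr1 at 14.2. Fos followed at 4.53, and Fosl1, Fosb and Atf3 were lowest at 3.13, 3.06 and 2.62, with neighboring intervals that overlapped. In the mimic library Junb was highest at 389, above Ier2 at 325. Jun and Fosl2 could not be ranked there, with 113 each (intervals 111 to 116 and 111 to 115). Fosl1, at 11.7, stood above Fos at 4.96 and Atf3 at 4.56, whose intervals overlapped, and Fosb was last at 2.18. Ier2, Junb, Jun, Fosl2 and Jund thus belonged to the upper 10% of measured genes by level per kb in the scramble library, at percentiles from 90.7 to 98.6, while Fos, Fosb, Fosl1 and Atf3 were between percentiles 19.6 and 27.8.

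The log2 ratio moved with transcript length and base composition over all measured genes, and several of the 10 are short and GC-rich. When the genes were split into 5 equal groups by transcript length, the median log2 ratio was 0.33 in the shortest group and -0.23 in the longest, and with 5 groups by GC content it was 0.13 in the highest. Jund and Ier2 belonged to the shortest group, Fosl2 to the longest, and Fosl1, Junb, Jund, Egr1 and Ier2 to the most GC-rich. A regression on length and GC content accounted for 15.3% of the variance over 11770 genes. After it, the log2 ratio was 1.66 for Fosl1, 1.04 for Egr1, 0.88 for Junb, 0.77 for Fosl2 and 0.66 for Atf3. Junb was then no longer past the fold and Egr1 was, so the count was again 2, beside 3.18% of all measured genes, but its members were not the same. Downward, 0 of the 10 and 2.69% of all measured genes were past the fold. Jund came to 0.031, Ier2 to 0.25, Jun to 0.23, Fos to 0.011 and Fosb to -0.46. The median of the 10 was 0.45, beside -0.022 for all measured genes.

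**Figure D4:**
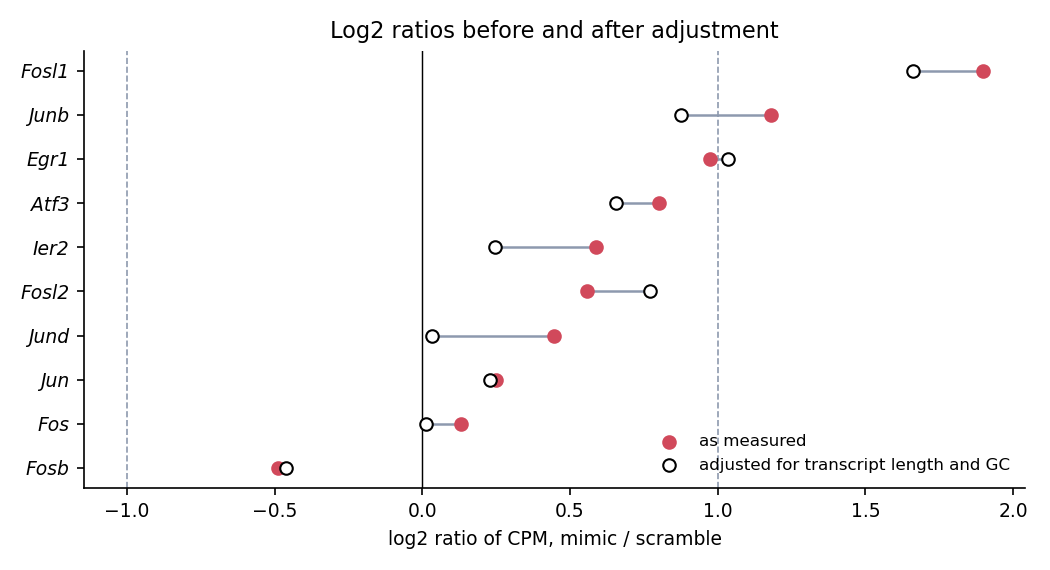
Log2 ratio of mimic to scramble for each gene as measured (filled) and after regression on transcript length and GC content over all measured genes (open), with dashed lines at -1 and 1. Jund moves from 0.45 to 0.031 and Fosl2 from 0.56 to 0.77, while Fosl1 stays above 1 and Fosb below 0.

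Promoter sequence from RefSeq (GRCm38.p6) was at hand for 7 of the 10 genes, as the 250 bases before a transcription start, and not for Fosl1, Egr1 and Ier2. The RefSeq start lies 671 bases from the start of the gene in GENCODE M21 for Fosl2, 1210 for Jund and 34706 for Atf3, and at most 30 for the others. The 120 bases next to the start are shown for the pair that differed most within the Jun family, Jun and Junb, and for Fos and Fosb, which had ratios near and below 0. Capitals mark TATAAA (the TATA box), TGACG (the core of the cAMP response element), TGACATCA (a variant AP-1 site of the Jun promoter) and CCAAT. Jun lies on the minus strand at chr4:95052223-95052342, Junb on the minus strand at chr8:84978749-84978868, Fos on the plus strand at chr12:85473770-85473889 and Fosb on the minus strand at chr7:19310046-19310165.
Jun: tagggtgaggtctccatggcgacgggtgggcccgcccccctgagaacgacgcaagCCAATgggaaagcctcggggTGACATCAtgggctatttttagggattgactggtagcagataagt
Junb: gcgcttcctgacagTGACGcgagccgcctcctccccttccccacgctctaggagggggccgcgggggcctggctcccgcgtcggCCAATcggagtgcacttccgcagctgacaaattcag
Fos: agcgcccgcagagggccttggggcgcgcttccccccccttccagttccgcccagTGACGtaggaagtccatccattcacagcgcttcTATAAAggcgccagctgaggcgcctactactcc
Fosb: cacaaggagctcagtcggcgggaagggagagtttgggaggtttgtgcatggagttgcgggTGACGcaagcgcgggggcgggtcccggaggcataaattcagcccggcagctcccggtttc

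TGACG was found, on either strand, in the windows of Fos, Fosb, Junb and Atf3, 4 of the 7, and in 17.8% of the 32851 windows in the table. It was thus in windows of genes with ratios from -0.49 to 1.18. The full palindrome TGACGTCA and the site TGANTCA were in 0 of the 7, against 1.55% and 6.75% of all windows. TGACATCA was in the Jun window and in 2.93% of all windows, and CCAAT was in the Jun and Junb windows and in 33.8%. The CArG box bound by serum response factor was in 0 of the 7 and in 1.47% of all windows. These matches describe letters in 250 bases and nothing about binding. Sites outside these windows were not searched, and Egr1 had no window.

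Of 28 other immediate early genes looked up, 26 had at least 20 reads. This list and those below were drawn up with earlier results of these data known. Past the fold were 5 upward and 0 downward, against 3.96% and 3.08% of all measured genes. The intervals of 16 lay wholly above 0 and those of 6 wholly below 0, against 31.5% and 32.5%. Their median log2 ratio was 0.19. Ier3, a survival factor of the early response, had 5536 and 2069 reads in the mimic and scramble libraries (log2 ratio 1.42), and Bhlhe40, a helix-loop-helix repressor, had 3923 and 1549 (1.34). The remaining 3, named after their values were seen, were Maff at 1.16, Gadd45a at 1.13 and Gadd45b at 1.03. The genes of the list with the most reads had log2 ratios of 0.11 for Mcl1 and 0.18 for Rhob. After the length and GC regression, 2 of the 26 were past the fold upward, against 3.18%.

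Of 23 other bZIP genes that can pair with AP-1 proteins or bind related sites, 21 had at least 20 reads, 3 were past the fold upward and 0 downward, against 3.96% and 3.08%, and the median log2 ratio was 0.27. Ddit3, the CHOP factor of the integrated stress response, had 1983 and 715 reads (log2 ratio 1.47), and Cebpb, a factor of the inflammatory response, 2757 and 1146 (1.27). The last of the 3 was Maff, which is in both lists. Atf4 and Atf5 had the most reads, with log2 ratios of 0.57 and 0.47. After the regression 0 of the 21 were past the fold in either direction, against 3.18% upward and 2.69% downward of all measured genes.

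The factors and kinases upstream of Fos and Egr1 were lower or mixed. Of 7 genes for serum response factor and its partners, 6 had intervals wholly below 0 and 1, Elk3, wholly above 0 (0.18), against 32.5% and 31.5% of all measured genes. The median log2 ratio was -0.42, and -0.65 after the regression. Elk4, a ternary complex factor that binds beside serum response factor, had 86 reads with the mimic and 696 with the scramble, and a log2 ratio of -3.02 (-3.36 to -2.69). Mkl1, a coactivator of serum response factor, had 2166 and 3484 reads (-0.69). Of 24 MAP kinase cascade genes measured, 0 were past the fold in either direction, against 3.96% upward and 3.08% downward of all measured genes. Their median log2 ratio was 0.042. Intervals were wholly above 0 for 9 and wholly below for 7, shares near the 31.5% and 32.5% of all measured genes. Nras and Map2k3, the genes with the most reads in that list, had log2 ratios of 0.032 and -0.22.

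Genes that bind AU-rich elements or degrade mRNA were also mixed. All 18 were measured, 0 were past the fold upward and 2 downward, against 3.96% and 3.08%, and the median log2 ratio was -0.12, or 0.0020 after the regression. Those 2 were Cnot6, a deadenylase of the CCR4-NOT complex, with 855 and 2652 reads (-1.63), and Xrn1, the cytoplasmic 5′ to 3′ exonuclease, with 93 and 252 reads (-1.44). Dcp2, the decapping enzyme, and Btg2, which recruits deadenylases, had the most reads and log2 ratios of -0.36 and -0.024.

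Among 22 genes that textbooks give as AP-1 targets, 21 were measured, 10 were past the fold upward and 0 downward, against 3.96% and 3.08% of all measured genes, and the median log2 ratio was 0.77. The list was drawn up with earlier results of these data known, so this count is not independent of the values. Many of these genes also answer to other factors, the metallothioneins to metal ions for example. Sprr1a, a cornified envelope precursor, had 37 reads with the mimic and 0 with the scramble. With a floor of 3 reads put in for 0 its log2 ratio was 3.62. The lower end of its counting interval was 3.25, and there is no upper end. Mt1, a metallothionein, had 8913 and 781 reads (log2 ratio 3.51). The other 8, named after their values were seen, were the matrix metalloproteinases Mmp3 at 2.54, Mmp9 at 2.41 and Mmp13 at 1.8, their inhibitor Timp1 at 1.14, Mt2 at 3.20, Dcn at 2.05, Spp1 at 1.95 and Hmox1 at 1.8. Not every member was higher. Of the 21, 17 had a log2 ratio above 0, against 49.9% of all measured genes, and 4 were below 0. Ccnd1, cyclin D1, had 16406 and 26773 reads (-0.71). Plaur at -0.11, Cd44 at -0.035 and Plau at -0.011 had intervals that included 0. Vim, which had the most reads, was at 0.55. After the regression 9 of the 21 were past the fold upward, against 3.18%.

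**Figure D5:**
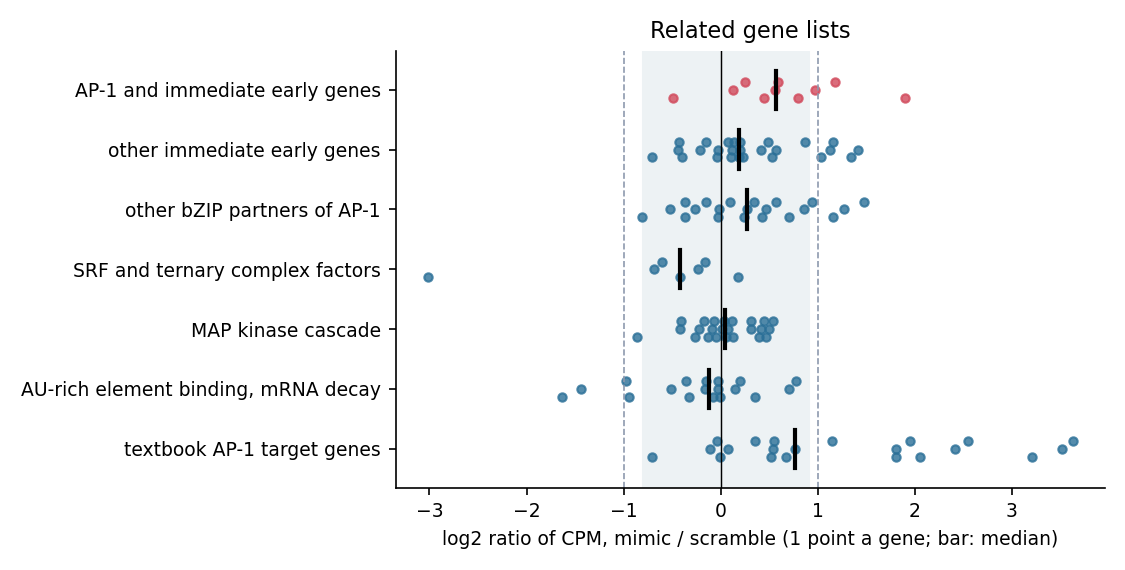
Log2 ratio of mimic to scramble for each measured gene of the 10 (top row) and of the related lists, with 1 point per gene, a bar at each median, the band from the 5th to the 95th percentile of all measured genes and dashed lines at -1 and 1. The medians are 0.57 for the 10 genes, 0.77 for the AP-1 targets and -0.42 for serum response factor and its partners. The point of Sprr1a at 3.62 has 3 reads put in for 0 with the scramble.

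In GENCODE M21 (GRCm38) Fos lies on chromosome 12 from 85473890 to 85477273, Fosb on chromosome 7 from 19302696 to 19310051, Fosl1 on chromosome 19 from 5447547 to 5455946 and Fosl2 on chromosome 5 from 32135801 to 32157842. Jun lies on chromosome 4 from 95049034 to 95052222, Junb on chromosome 8 from 84974484 to 84978718 and Jund on chromosome 8 from 70698949 to 70700616. Ier2 is also on chromosome 8, from 84661331 to 84662852, and Atf3 is on chromosome 1 from 191170296 to 191218039. The transcripts of Jun, Junb, Jund and Ier2 consist of 1 exon, those of the Fos family and Atf3 of 4 and that of Egr1 of 2.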

How the data were processed

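Ago2 IP RNA from TM4 cells gave 1 library per condition. The authors deposited unnormalized counts of reads for each gene symbol, as 22609 gene rows and 5 summary rows per library. The submitters' processing notes name CASAVA 1.8.2, TopHat2 2.0.8b, HTSeq and genome build mm9. The annotation and the strand setting are not given in the sources used here. Reads aligned to more than 1 place were 39.8% of entries for the mimic and 35.6% for the scramble, and they, like reads over more than 1 gene, were not counted on genes.

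A minimum of 20 counts, summed over both libraries, was required. TMM scaling was done with edgeR 4.0.16 under R 4.3.3 (mimic factor 1.0026, scramble factor 0.9974). CPM, log2 ratios and their intervals (Clopper-Pearson, from the part of a gene's counts found in the mimic library) were computed in Python 3.11.15 with scipy 1.17.1 and pandas 2.3.3, and levels have exact Poisson intervals. With 1 library per condition no test was run and no p-value is given, so a call means a log2 ratio beyond 1 or -1. The interval code was checked on simulated counts.

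Transcripts came from GENCODE M21 (GRCm38), matched by symbol or synonym for 96.6% of the measured genes, taking the longest coding region. Since this is not the build of the counts, it was used for sequence, length and position only. The miRNA and promoters are RefSeq sequences. The regression used log2 length and GC content with quadratic terms. Named beyond the 10 genes were, per list, the 2 largest ratios past the fold in each direction and the 2 genes with the most counts, and of the cell markers Sox9, Amh and Wt1. Others were named after their values were seen. The 10 genes and the lists were chosen with earlier results of these data known. Hras and Rhox5 had no row under these symbols. The alternatives tried were DESeq2 1.42.0 size factors, total counts and upper quartile scaling, removal of the count minimum or a minimum of 200, a threshold of 0.5, an interval rule, and the regression.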

Additional observations from a re-analysis of the deposited data

How the results depend on the processing

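Scaling by DESeq2 size factors, total counts or upper quartile moved the median of all measured genes by at most 0.0181 on the log2 scale. Under each of them 9 of the 10 genes stayed above 0 and 2 past the fold. The shares of all measured genes past the fold upward were 4.19%, 4.19% and 4.26%. With a log2 ratio threshold of 0.5 in place of 1, 6 of the 10 were past the fold upward, against 14.9% of all measured genes, and when the nearer end of the interval had to pass 0.5, 5 were, against 6.72%. The length and GC regression changed the totals most, to 0.754 for the Fos family, 0.519 for the Jun family and 0.574 for all 10 genes, since length and GC content alone gave Fosl2 a fitted ratio of -0.21 and Junb and Jund fitted ratios of 0.30 and 0.41. Under it 9 of the 10 stayed above 0, though Fos at 0.011 and Jund at 0.031 were close to it. The 2 past the fold were then Fosl1 and Egr1 in place of Fosl1 and Junb. Among the related lists, the count past the fold upward went from 5 to 2 for the other immediate early genes and from 3 to 0 for the other bZIP genes. The share of all measured genes past the fold upward went from 3.96% to 3.18%. For the differences between family members, an alternative chosen after seeing the data, Jun minus Jund reversed to 0.198. Over 36 results and 173 alternative values, 140 stayed within the counting interval of the ratio or, for counts, within 1.5 times, 32 lay outside these limits with no change of sign, and 1 reversed. No paired analysis was possible because each condition has 1 library, and the variation between cultures is unknown. At 97 to 216 scramble reads, the ratios of Fos, Fosb, Fosl1 and Atf3 carry the widest intervals.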
